A study of Mus musculus with 171 samples.

Results

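Cytoplasmic ribosomal proteins were taken as the protein-coding mouse genes whose symbol is Rpsa, Rplp with 0, 1 or 2, or Rpl or Rps followed only by a number and at most 1 letter out of a, x and l. The rule found 80 genes, 49 named for the large (60S) and 31 for the small (40S) subunit, among the 49671 gene rows of the count table, and every one of the 80 had counts in each of the 6 groups. Members of the ribosome whose symbols fall outside that pattern, such as Rps3a1, Fau and Rack1, were not counted, and 3 matching symbols (Rpl32l, Rpl6l and Rps4l) were left out because the annotation lists them as pseudogenes. No measured value entered the choice.

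Ribosomal proteins are made in the cytoplasm, imported into the nucleolus and assembled there on ribosomal RNA into the small subunit, which decodes the mRNA, and the large subunit, which joins the amino acids. Their mRNAs are among the most abundant of a growing cell and begin, in most cases, with a run of pyrimidines (the TOP motif) through which the mTOR kinase and the RNA-binding protein LARP1 control their translation together. Most of these genes have left processed pseudogenes across the mouse genome, so the sequence of a ribosomal protein mRNA is often found more than once.

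The series holds single-cell RNA-seq of preimplantation mouse embryos in which the titles MUT and WT stand for Stat3 -/- and Stat3 +/+, as given by the genotype label. STAT3 is the transcription factor activated by leukaemia inhibitory factor signalling. The inner cell mass (ICM), from which the epiblast (EPI, the future embryo proper) and the primitive endoderm (PrE, the future yolk sac endoderm) arise, was sampled at E3.5, and EPI and PrE cells carry E3.75 in their titles. The groups were MUT ICM (55 cells of 5 embryos) and WT ICM (64 cells of 5 embryos), MUT EPI (9 cells of 4 embryos) and WT EPI (19 cells of 3 embryos), and MUT PrE (14 cells of 4 embryos) and WT PrE (10 cells of 3 embryos). EPI and PrE cells came from the same E3.75 embryos. The sources used here do not say how the Stat3 allele was made or on which strain background.

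Cells held 163822 to 25095390 counts, and 9 ICM cells (5 MUT, 4 WT) were far shallower or poorer in genes than the rest of their stage. The embryo was the unit of replication: counts were summed into 24 sums of 1 embryo and 1 lineage, and levels are given as CPM, counts scaled to library size with TMM factors. Stat3 was at 6.28 ± 5.57 CPM in MUT ICM and 70.7 ± 25 CPM in WT ICM, at 8.76 ± 12.3 CPM in MUT EPI and 133 ± 42.5 CPM in WT EPI, and at 12.7 ± 5.79 CPM in MUT PrE and 91.5 ± 59.2 CPM in WT PrE (mean ± SD over embryos). MUT and WT values did not overlap in any lineage, with highest MUT values of 12.3, 26.3 and 21.4 CPM in ICM, EPI and PrE and lowest WT values of 43.9, 84.5 and 24.3 CPM, while adjusted p was 0.68, 0.97 and 0.74 (edgeR). The summed EPI markers were at 1429 to 2833 CPM in MUT EPI and 47.4 to 168 CPM in MUT PrE. In WT they were at 2499.6 to 3448 CPM in EPI and 109.9 to 1538 CPM in PrE. The summed PrE markers were at 2418 to 3890 CPM in MUT PrE and 48.5 to 219 CPM in MUT EPI. In WT they were at 1167 to 3517 CPM in PrE and 79.0 to 199.7 CPM in EPI. Both sums separated the lineages within each genotype. The WT PrE embryos were uneven, with Dab2 at 5.71 to 310 CPM against 213 to 1006 CPM in MUT PrE. Their highest sum of EPI markers lay above the lowest of MUT EPI. The stages differ in title letter as well (A to C at E3.75, D to H at E3.5), and no label explains it, so stage and letter cannot be told apart. MUT EPI embryo 2 and WT PrE embryo 3 are sums of 1 cell. With 4 against 3 embryos at E3.75, and all 4 MUT embryos male there against 1 male and 2 female WT embryos by their Y-linked and Xist counts, sex and genotype are largely confounded at that stage. Sex was uneven in the ICM too, with 1 male and 4 female MUT embryos against 3 male and 2 female WT embryos.

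The start of transcription shows how the members are built. The sequences below span 20 bases before to 10 bases after a RefSeq start (build GRCm38.p6) of some of the members described here. The longest run of pyrimidines in the window is in capitals, on either side of the start.
Rpl4, chr9:64173367-64173396, plus strand: agTCTTTCCTTTTCCTgtgggagcagccgg
Rplp2, chr7:141447631-141447660, plus strand: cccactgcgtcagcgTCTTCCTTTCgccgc
Rps6, chr4:86857358-86857387, minus strand: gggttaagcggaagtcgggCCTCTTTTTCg
Rps27, chr3:90213639-90213668, minus strand: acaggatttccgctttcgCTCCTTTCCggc
Rps27l, chr9:66946066-66946095, plus strand: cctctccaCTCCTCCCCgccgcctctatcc
Rpl39, chrX:37085213-37085242, minus strand: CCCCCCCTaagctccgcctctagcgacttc
Rpl39l, chr16:10170208-10170237, plus strand: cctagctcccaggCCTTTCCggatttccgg
Rps4x, chrX:102189382-102189411, minus strand: aaagTCTgaggctgggcggagcaacccagg
The run spanned 14 bases at Rpl4, 10 at Rplp2 and Rps6, 9 at both Rps27 and Rps27l, 8 at Rpl39, 7 at Rpl39l and 3 at Rps4x. In windows not printed it spanned 10 bases at Rpl13, 6 at Rps2, 5 at Rpl37a, 3 at Rpl36a and 2 at Rpl10. At a second start of Rps27l it spanned 4 bases, so the printed windows do not show how common long runs are. A TOP motif would begin at the first base of the mRNA, which follows the first 20 letters shown. The marked run spans the annotated start at Rplp2, Rps6 and Rps27. It ends before the start at Rpl4, Rps27l, Rpl39, Rpl39l and Rps4x. RefSeq starts are not exact to the base, so neither the place nor the length of a run says whether the mRNA begins with a TOP motif.

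Promoters were found in that table for 60 of the 80 members, with 72 start sites. A pyrimidine run of at least 8 bases within 25 bases of the start, on the sense strand, stood in 33 of the 72 (45.8%), against 19.7% of all 32851 RefSeq promoters of the same length (300 bases). The letters CCGGAAG, the core that GABP and other ETS factors bind, stood on either strand in 36.1% of the members' promoters and in 8.86% of all promoters. CTCTTTC was present in 27.8% of the members' promoters against 8.16% of all, and CTTTCC, which can overlap it, in 36 of the 72 against 26.6%. ATGGCGG, part of the site of YY1, stood in 18.1% against 4.05%, and TATAAA, the TATA box, in 8.33% against 13.6%. These are counts of letters and not of bound sites.

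Members differed in level far more from each other than between groups. Per kilobase of exon, the median member was at 331.1 CPM per kb in MUT ICM and 329 in WT ICM, 362 in MUT EPI and 351 in WT EPI, and 354 in MUT PrE and 375 in WT PrE. The order of the 80 members was nearly the same everywhere, with a rank correlation of 0.93 to 0.99 between any pair of groups (Spearman, across 80 genes that share the same libraries). Among the highest were the stalk protein gene Rplp1, with a mean over the 6 groups of 1787 CPM per kb, Rps29 (1462), Rpl36 (1414) and Rpl41 (1269). Rplp1 was at 1532 ± 780.1 CPM per kb in MUT ICM and 1406 ± 271 in WT ICM, 1997 ± 598 in MUT EPI and 1835 ± 267 in WT EPI, and 1909 ± 434 in MUT PrE and 2041 ± 273 in WT PrE (mean ± SD). The lowest per kb of exon were Rpl3l (0.896 CPM per kb), Rpl29 (21), Rpl34 and Rpl22 (both 82.1) and Rps15a (93.2). Rpl34, Rpl22 and Rps15a changed places between groups, while Rpl29 was below them in each of the 6 groups. These places depend on the length used. Without division by length, the median share of the members' counts in a cell was 0.85% for Rps15a, 0.35% for Rpl34 and Rpl22 and 0.038% for Rpl29. Rps21 (0.33%) and Rpl10l (0.16%) lay below Rpl34 and Rpl22 there.

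**Figure D1:**
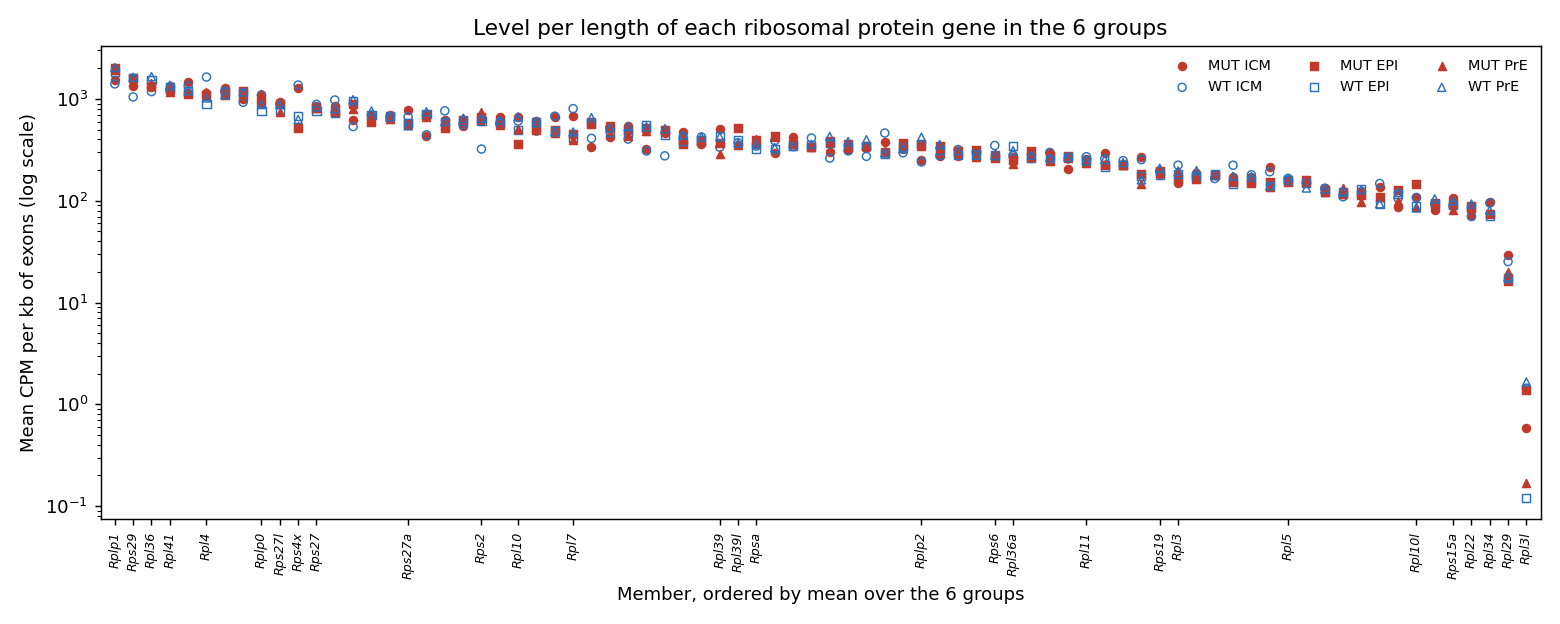
Mean CPM per kb of exons (log axis) of 78 of the 80 members, ordered from the highest mean over the 6 groups to the lowest (Rpl3l), with names under the members described in the text, MUT groups filled and WT groups open and the lineages as circles (ICM), squares (EPI) and triangles (PrE). The marks of most members lie close together, while for Rps4x and Rpl7 the ICM marks lie above the E3.75 marks.

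Many members share sequence with other genes. A member's coding transcript shared a median of 44.4% of its 50-base stretches with annotated transcripts of other genes, chiefly processed pseudogenes, from 0%, as in Rpl39l and Rpl3l, to 98.6% in Rps27, and 33 of the 80 shared over 50%. Rpl29 shared 66.8% with 84 other genes, 81 of them pseudogenes, and Rps2 shared 76.8% with 71 pseudogenes. Across the 80 members the level per kb had a rank correlation of 0.08 with that share and of -0.58 with exon length, and levels by coding transcript length instead of exon length had a rank correlation of 0.85 with the main ones. The 277 rows of pseudogenes named for a member held 0.0694 to 0.19% of the counts of a MUT ICM sum and 0.102 to 0.148% of those of a WT ICM sum. The labels do not say how reads with several equal placements were counted.

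Together the 80 genes took a similar share of all counts in every E3.75 group and a widely varying one at E3.5. The share was 2.04, 4.79, 7.91, 7.12 and 6.66% in the MUT ICM embryos 10, 18, 2, 23 and 24, and 3.88, 5.98, 5.44, 5.41 and 7.34% in the WT ICM embryos 13, 16, 20, 21 and 22. It was 7.30, 6.37, 6.17 and 6.11% in MUT EPI embryos and 6.82, 6.24 and 6.61% in WT EPI embryos. In PrE it was 5.71, 6.03, 6.71 and 6.56% in MUT embryos and 6.21, 6.68 and 7.0% in WT embryos. The means ± SD over embryos were 5.70 ± 2.35% in MUT ICM and 5.61 ± 1.25% in WT ICM, 6.49 ± 0.554% in MUT EPI and 6.56 ± 0.29% in WT EPI, and 6.25 ± 0.463% in MUT PrE and 6.63 ± 0.394% in WT PrE. MUT and WT overlapped in each lineage, and the lowest sum of all was MUT ICM embryo 10. Without that embryo the MUT ICM mean was 6.62%. Large subunit genes took 3.16 ± 1.26% of counts in MUT ICM and 3.14 ± 0.651% in WT ICM, and small subunit genes 2.54 ± 1.09% in MUT ICM and 2.47 ± 0.606% in WT ICM, so the subunits varied side by side. A share of counts cannot tell fewer ribosomal protein mRNAs per cell from more of other mRNAs.

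Single ICM cells spread over a 10-fold range that E3.75 cells lacked. MUT ICM cells ranged from 1.55 to 16.3% (median 3.69%) and WT ICM cells from 2.79 to 16.4% (median 4.54%), against 5.47 to 8.27% over all 52 E3.75 cells. In MUT ICM 35 of 55 cells lay below the range of the E3.75 cells, 5 within it and 15 above it. In WT ICM 41 of 64 cells lay below that range, 11 within it and 12 above it. The SD between cells of 1 embryo was 3.24 percentage points in MUT ICM and 3.66 in WT ICM. It was 0.438 in MUT EPI and 0.666 in WT EPI, and 0.392 in MUT PrE and 0.628 in WT PrE. The SD between the median cells of the embryos was 3.25 percentage points in MUT ICM and 0.811 in WT ICM. The spread thus lay chiefly within embryos in WT ICM, and both within and between embryos in MUT ICM. Cells above the E3.75 range were found in 4 of the 5 MUT ICM embryos and in all 5 WT ICM embryos. The exception was MUT embryo 10, whose 19 cells lay between 1.55 and 3.45%. Leaving out the shallow cells left both ranges as they were.

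Some other measures of the same cells moved with the share in MUT ICM, and genes detected and total counts did not in WT ICM. Across the 55 MUT ICM cells it had a rank correlation of 0.87 with the mitochondrial share of counts, -0.76 with the number of genes detected and -0.55 with total counts. With the summed PrE, EPI and trophectoderm markers the correlations were -0.61, -0.18 and -0.24. Across the 64 WT ICM cells the same correlations were 0.33, -0.06, -0.05, -0.24, -0.34 and -0.43. MUT embryo 10 gave 19 of the 55 MUT cells. It had the lowest mitochondrial share of the MUT ICM embryos (4.23%) and the most genes detected (median 10029), so the MUT correlations rest partly on that embryo. These are descriptions across cells that share embryos, and the part of depth, RNA quality or cell identity in the share was not tested. Every title letter from D to H held cells below and above the E3.75 range in both genotypes, except the 3 WT cells of letter G, with medians per letter of 2.77 to 5.48% for MUT ICM cells and 3.90 to 5.72% for WT ICM cells.

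**Figure D2:**
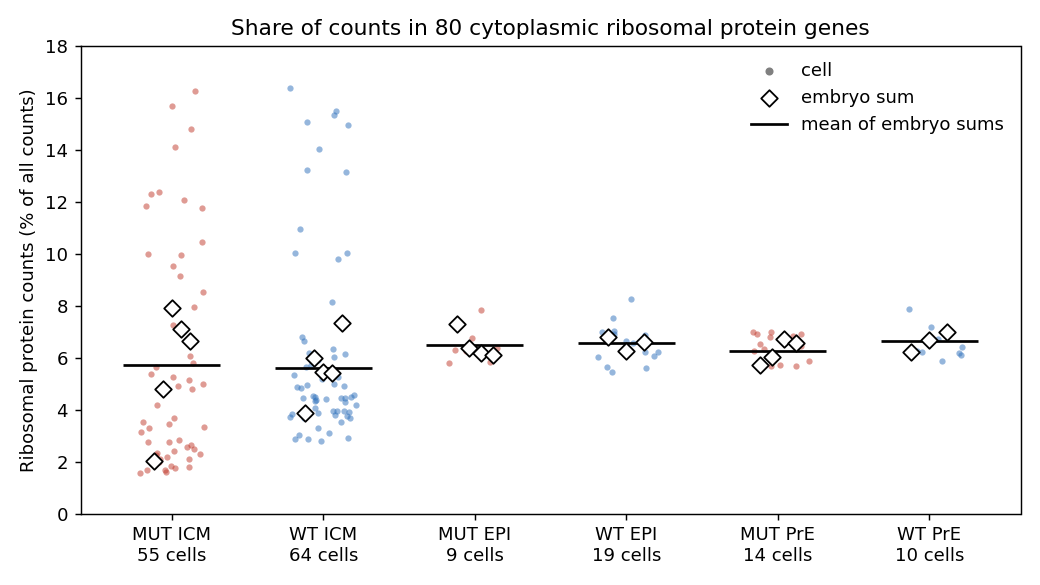
Ribosomal protein counts as a percent of all counts in each cell (small points, MUT in red and WT in blue), in each embryo sum (open diamonds) and as the mean of the embryo sums (bars), for the 6 groups. ICM cells reach from 1.55 to 16.4%, while the cells of the 4 E3.75 groups lie between 5.47 and 8.27%.

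Most members followed the sum. Across the 24 sums the median rank correlation of a member with the summed other members was 0.70, and it was at least 0.5 for 63 of the 80. The same count over all genes was not made, so following the sum is not shown to be particular to the members. The coefficient of variation over embryos of the median member was 53.5% in MUT ICM and 35.2% in WT ICM, 20.6% in MUT EPI and 13.8% in WT EPI, and 10.8% in MUT PrE and 9.53% in WT PrE. Over all genes of at least 50 mean CPM it was 55.2% and 45.2% in MUT and WT ICM, 35.6% and 19.5% in MUT and WT EPI, and 28.0% and 31.4% in MUT and WT PrE. Of the 3467 genes of at least 50 mean CPM, members counted, the non-members most like the summed members over the 24 sums included Rpl34-ps1 (rank correlation 0.95), Rpl36al (0.91), Cox4i1 (0.87) and Atp5h (0.82). Rpl34-ps1 is a pseudogene copy of a member, Rpl36al encodes a ribosomal protein outside the rule, and Cox4i1 and Atp5h encode subunits of cytochrome oxidase and of the ATP synthase.

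Loss of STAT3 was compared first in the ICM. No member passed an adjusted p of 0.05 with edgeR's quasi-likelihood test, among 79 tested of 80 (Rpl3l was too low), and 0.0% of the 12270 genes tested passed it. At an unadjusted p under 0.05 there were 0 members and 815 genes, and 0 members were called by DESeq2 (108 genes) or by limma-trend (2 genes). The quartiles of the members' log2 fold changes, MUT over WT, were -0.11 and 0.13, and 39 of 79 were above 0 (49.4%) against 47.6% of all genes. With RLE scaling 61 of 79 were above 0 with a median of 0.11, so the split depends on the scaling. The median standard error of a member was 0.45. A 2-fold change was outside 1.96 standard errors for 34 of the 79, and for the others it was not excluded with these embryos. In 0 members did the MUT embryos lie all above or all below the WT embryos, against 0.603% and 0.945% of genes. Summed EPI markers lay at 595 to 1427 CPM in MUT ICM, against 2437 to 3138 CPM in WT ICM, and their part in the members' values was not tested. The median over members was 0.30 without MUT embryo 10 and -0.21 without MUT embryo 2.

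Rpl3, a large subunit protein near the peptidyl transferase centre, had the smallest p in the ICM. It was at 405, 577, 436, 502 and 440.1 CPM in MUT ICM and 955, 909, 564, 501 and 624 CPM in WT ICM, a log2 fold change of -0.60 (SE 0.31) with adjusted p = 0.79 (edgeR). The groups overlapped.

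Rps2 (ENSMUSG00000044533, chr17:24718116-24721929, mm10), a small subunit protein at the mRNA entry channel, came next and showed an uneven pattern. It was at 660.4, 1242, 853, 1081 and 1773 CPM in MUT ICM and 999, 160.3, 247, 245 and 1301 CPM in WT ICM, a log2 fold change of 0.91 (SE 0.55) with adjusted p = 0.81 (edgeR). WT embryos 16, 20 and 21 were the low ones, while WT embryos 13 and 22 lay among the MUT embryos. At E3.75 Rps2 was at 818 to 1435 CPM in MUT EPI and 741 to 1319 CPM in WT EPI, and at 1198 to 1537 CPM in MUT PrE and 741 to 1473 CPM in WT PrE.

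Within those embryos the low values came from some cells and not from others. MUT ICM cells held 366 to 2084 CPM of Rps2 (median 933) and WT ICM cells 3.21 to 1593 CPM (median 257). Counting cells whose Rps2 took less than 0.1 of its median share of the members' counts over all cells, a limit set after the values were seen, found 0 of 55 MUT ICM cells, 26 of 64 WT ICM cells and 0 of the 52 E3.75 cells. The 26 cells were 9 of the 15 cells of WT embryo 16, 8 of the 14 of embryo 20, 8 of the 17 of embryo 21, 1 of the 7 of embryo 13 and 0 of the 11 of embryo 22. They carried every title letter from D to H, and none was among the shallow cells.

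Rpl13 (ENSMUSG00000000740, chr8:123102350-123105244, mm10), a large subunit protein, was low in a part of the same cells. By the same limit 0 MUT ICM cells, 18 WT ICM cells and 0 E3.75 cells were low in Rpl13, and all 18 were among the 26 low in Rps2. MUT ICM cells held 217 to 3071 CPM of Rpl13 and WT ICM cells 4.54 to 3400.1 CPM. In embryo sums it was at 294, 982, 1585, 1551 and 1533 CPM in MUT ICM and 672, 304, 448, 497 and 1665 CPM in WT ICM, with a log2 fold change of 0.73 (SE 0.51) and adjusted p = 0.87 (edgeR), and the groups overlapped. Of the other 78 members, Rpl10l fell under the limit in 8 MUT and 12 WT ICM cells, and 6 members did in at most 4 ICM cells each, with 0 to 2 per genotype.

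Depth and read sharing give these values beside Rps2. Across the 64 WT ICM cells Rps2 had a rank correlation of 0.74 with Rpl13, -0.37 with total counts, -0.13 with genes detected, 0.01 with the share of all members and -0.20 with the mitochondrial share. The 10 rows of pseudogenes named for Rps2 together reached at most 119 CPM in a WT ICM cell and had a rank correlation of 0.87 with Rps2. Of 3073 other genes of at least 50 mean CPM, the ones most like Rps2 across those cells were Phb2 (0.88), Hmgn1 (0.86), Slc25a3 (0.85), Dut (0.85) and Tpt1 (0.81), named after the values were seen. Phb2 encodes a mitochondrial prohibitin, Hmgn1 a nucleosome-binding protein, Slc25a3 the mitochondrial phosphate carrier, Dut the dUTPase and Tpt1 a TOP mRNA product. Phb2 had a median of 436 CPM in MUT ICM cells and 171 CPM in WT ICM cells, and Dut 262 CPM in MUT ICM cells and 86.6 CPM in WT ICM cells. The part of library preparation, alignment or cell state in the pattern was not tested.

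**Figure D3:**
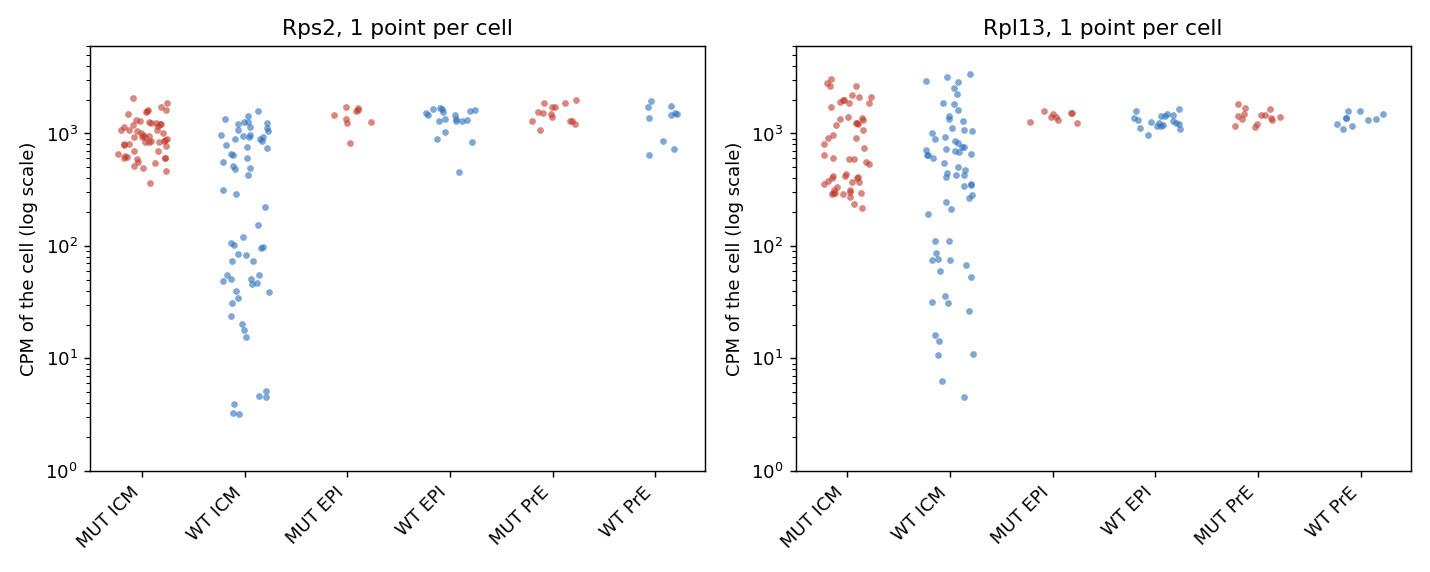
CPM of Rps2 (left) and Rpl13 (right) in each cell of the 6 groups on a log axis, MUT in red and WT in blue. WT ICM cells reach down to 3.21 CPM for Rps2 and 4.54 CPM for Rpl13, while MUT ICM cells stay above 366 and 217 CPM.

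In the EPI the same comparison again called no member. With edgeR 0 of 80 members passed, against 0.0% of 12298 genes, and 0 members and 570 genes had an unadjusted p under 0.05. DESeq2 and limma-trend called 0 members, with 187 and 0 genes. The quartiles of the log2 fold changes were -0.08 and 0.12, and for 77 of the 80 a 2-fold change was outside 1.96 standard errors. Rpl4, a large subunit protein of the exit tunnel, was at 2040.3, 2224, 2545 and 2013 CPM in MUT EPI and 1843, 1701 and 1879.9 CPM in WT EPI. Every MUT embryo was above every WT embryo, with a log2 fold change of 0.28 (SE 0.13) and adjusted p = 0.9999 (edgeR). Rpl36a had the second smallest p, at 557, 414, 365 and 339 CPM in MUT EPI and 685, 599 and 427 CPM in WT EPI, a log2 fold change of -0.45 (SE 0.24) with adjusted p = 0.9999 and with overlap. Rpl4 was the only one of 80 members with all MUT above all WT, 1.25% of members against 2.22% of genes, and 0 members had all MUT below all WT, against 5.37% of genes.

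In the PrE the members lay slightly lower in MUT without a call. With edgeR 0 of 79 members passed, against 0.0% of 11765 genes. An unadjusted p under 0.05 was found for 3 members and 545 genes. DESeq2 called 1 member, Rpl39, lower in MUT, and 157 genes, and limma-trend called 0 of either. The median log2 fold change of members was -0.12 against 0.03 over all genes, and 63 of 79 members were below 0. Without WT PrE embryo 3, the sum of 1 cell, that median was -0.04. Summed trophectoderm markers lay at 169.5 to 1155 CPM in MUT PrE and 140.4 to 3883 CPM in WT PrE, and their part was not tested. In 8 members every MUT embryo was below every WT embryo (10.1% of members against 3.11% of genes): Rpl10, Rps15a, Rps27l, Rpl12, Rpl37a, Rpl38, Rpl36a and Rpl39. Only Rpl4 had all MUT above all WT (1.27% of members against 3.59% of genes), at 2233, 2522, 2259 and 2461 CPM in MUT PrE and 1978, 2072 and 2109 CPM in WT PrE.

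The 4 X-linked members are Rps4x, Rpl10, Rpl36a and Rpl39. In PrE, Rpl39, which lines the exit tunnel, was at 395, 432, 446 and 396 CPM in MUT and 599.9, 651 and 576 CPM in WT, a log2 fold change of -0.57 (SE 0.13) with adjusted p = 0.74 (edgeR). Rpl36a, a large subunit protein, was at 386, 358, 389 and 393 CPM in MUT PrE and 494, 567 and 478 CPM in WT PrE (log2 fold change -0.45, SE 0.13; adjusted p = 0.94). Rpl10, which is added late to the large subunit, was at 978, 1194, 1079.9 and 899.7 CPM in MUT PrE and 1399, 1309 and 1429 CPM in WT PrE, and Rps4x, a small subunit protein, at 989, 1015, 822 and 755 CPM in MUT PrE and 1149, 1184 and 748 CPM in WT PrE. The groups overlapped for Rps4x and not for the other 3.

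All 4 X-linked members had a log2 fold change below 0 in both E3.75 lineages, with medians of -0.42 in EPI and -0.44 in PrE. Over all X-linked genes the medians were -0.12 in EPI and -0.09 in PrE, over autosomal members 0.04 and -0.12, and in the ICM the 4 members had a median of 0.04. The MUT embryos at E3.75 were all male. In EPI the male WT embryo, number 3, was below both female WT embryos for each of the 4 members, at 737 against 1241 and 1364 CPM for Rps4x. In PrE it was below them for Rps4x, Rpl36a and Rpl39 but above them for Rpl10, at 1429 against 1399 and 1309 CPM, and there it was above all 4 male MUT embryos for Rpl10, Rpl36a and Rpl39. Its title letter is A and that of both female WT embryos is C, so sex and letter cannot be told apart in WT. Among the male MUT embryos Rps4x also differed by letter, at 1168 and 827 CPM for letter B and 727 and 663 CPM for letter A in EPI, and at 989 and 1015 CPM for B and 822 and 755 CPM for A in PrE. Letter B holds MUT embryos and letter C WT embryos alone. With embryo sex in the model, the log2 fold changes in EPI were 0.20 for Rps4x, 0.052 for Rpl10, 0.067 for Rpl39 and -0.03 for Rpl36a, and in PrE 0.21 for Rps4x, -0.51 for Rpl10, -0.51 for Rpl39 and -0.37 for Rpl36a. These sex-adjusted values rest on 1 male WT embryo.

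**Figure D4:**
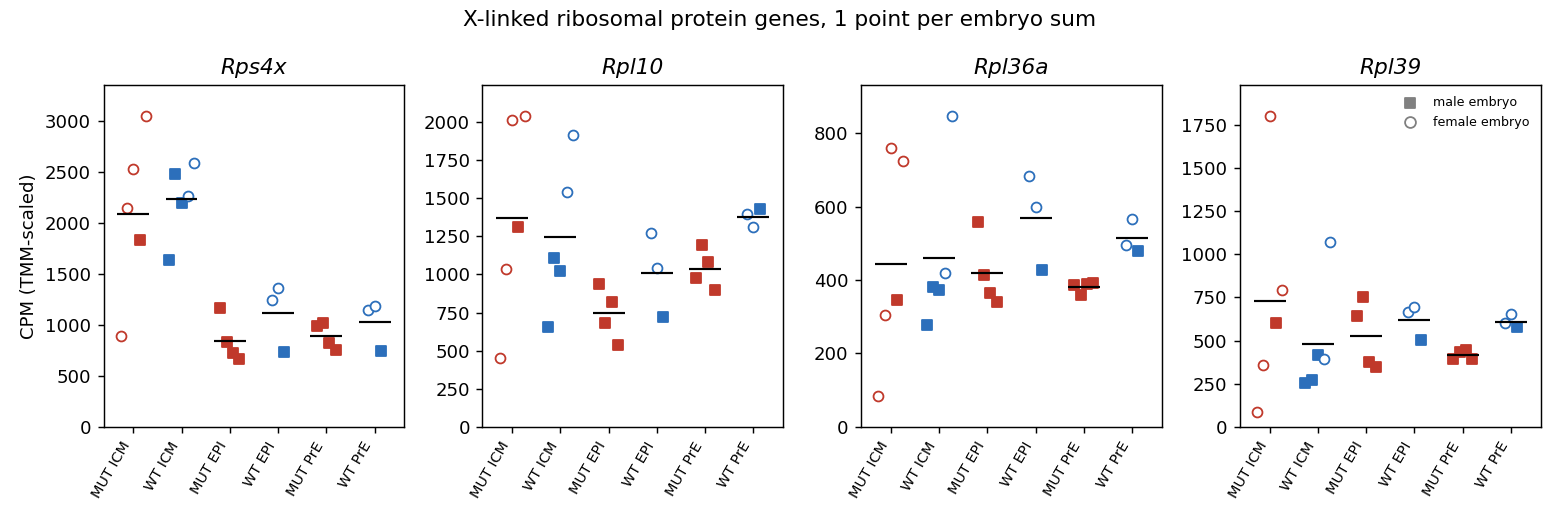
CPM of the 4 X-linked members in each embryo sum of the 6 groups, with males as filled squares, females as open circles and bars at group means. For Rps4x both E3.75 lineages lie at 663 to 1364 CPM, and all but 1 of the 10 ICM embryos lie above that range; in the EPI the male WT embryo is level with the male MUT embryos.

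The differences of the genotype effect between lineages were tested as interactions. No member passed in any of the 3 (edgeR, 80 members tested, 0.0% of 16521 genes called each time), with an unadjusted p under 0.05 for 1, 1 and 0 members and for 1713, 1750 and 1150 genes. For EPI minus ICM and for PrE minus ICM, Rpl4 had the smallest p, with differences of log2 fold change of 0.80 (SE 0.31) and 0.72 (SE 0.31), and adjusted p = 0.34 and 0.41. For EPI minus PrE it was Rpl3l, whose counts came from few cells and whose difference changed sign when WT embryo 3 was left out.

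EPI and PrE were next compared within each genotype. In WT, 0 of 79 members passed with edgeR, against 0.0314% of 12733 genes, and 0 members and 1190 genes had an unadjusted p under 0.05. DESeq2 called 0 members and 731 genes, and limma-trend 0 members and 7 genes. The median member was at a log2 fold change of -0.08, EPI over PrE, against 0.03 over all genes, and 56 of 79 members were below 0 (64 with RLE scaling). Without WT embryo 3 that median was 0.01. In MUT, 0 of 79 passed against 1.65% of 10698 genes, 2 members and 1090 genes had an unadjusted p under 0.05, and DESeq2 and limma-trend called 0 members, with 646 and 321 genes. There the median member was at 0.05, and 56 of 79 were above 0, while without MUT embryo 1 the median was -0.06. Rps7 alone had all MUT EPI above all MUT PrE values (1.27% of members against 4.21% of genes), and 0 members had them all below (against 5.97% of genes). For 77 WT and 76 MUT members a 2-fold difference between the lineages was outside 1.96 standard errors, while 4 of the 8 EPI markers and 6 of the 9 PrE markers tested in the MUT embryos passed in the direction of their lineage. In the WT embryos 1 of 8 EPI markers and 1 of 8 PrE markers passed, although all of them lay in that direction.

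Rpl10 had the smallest p in both. It was at 1270.5, 1044 and 718 CPM in WT EPI and 1399, 1309 and 1429 CPM in WT PrE (log2 fold change -0.45, SE 0.21; adjusted p = 0.65, edgeR), with all EPI below all PrE values. In MUT it was at 939.6, 682, 820.2 and 535 CPM in EPI and 978, 1194, 1079.9 and 899.7 CPM in PrE (log2 fold change -0.47, SE 0.19; adjusted p = 0.43), and there the lineages overlapped as groups. The EPI and PrE values are listed in the same order of embryos, and Rpl10 was lower in EPI than in PrE in 4 of 4 MUT and 3 of 3 WT embryos. With the embryo as a block the log2 fold change was -0.49 in MUT and -0.48 in WT and did not pass. Without WT embryo 3, whose PrE sum is 1 cell, the WT value was -0.20. Rps19, a small subunit protein, was next in WT, at 912, 806 and 791 CPM in EPI and 1009, 961 and 968 CPM in PrE. All EPI were below all PrE values in 5 WT members, Rpl10, Rpl15, Rpl4, Rps27l and Rps19 (6.33% of members against 7.45% of genes), and 0 were all above (against 10.9%).

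Stage was compared within each genotype, E3.75 over E3.5. In WT EPI over WT ICM 0 of 79 members passed with edgeR, against 0.308% of 13972 genes, and in WT PrE over WT ICM 0 of 79, against 0.349% of 13190 genes. In MUT EPI over MUT ICM 0 of 80 passed, against 0.0682% of 11733 genes, and in MUT PrE over MUT ICM 0 of 80, against 0.507% of 12040 genes. An unadjusted p under 0.05 was found for 8, 13, 1 and 1 members in that order, and for 1966, 1954, 948 and 1139 genes. DESeq2 called Rpl4, Rpl7 and Rps4x in WT EPI over WT ICM, Rps4x in WT PrE over WT ICM, none in MUT EPI over MUT ICM and Rps4x in MUT PrE over MUT ICM, each lower at E3.75, among 1085, 1192, 415 and 561 genes. The means of log values over cells, tested with limma-trend, called 13 members higher in WT EPI and 10 higher in WT PrE than in WT ICM, among 3974 and 2012 higher genes of all. In that fit the median member was at 0.51 and 0.53, and the median of all genes at 0.68 and 0.56. In the edgeR fit the members lay on both sides of 0, with log2 fold changes from -0.99 to 0.90 in WT EPI and from -1.11 to 1.02 in WT PrE, leaving out Rpl3l.

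Rps4x had the most negative log2 fold change of the members, Rpl3l left out, in each of the 4 stage comparisons. It was at 1168, 827, 727 and 663 CPM in MUT EPI, 989, 1015, 822 and 755 in MUT PrE and 893, 2145, 2527, 1838 and 3053 in MUT ICM. In WT it was at 1241, 1364 and 737 CPM in EPI, 1149, 1184 and 748 in PrE and 1639, 2484, 2196, 2268 and 2591 in ICM. In WT all E3.75 values were below all ICM values, and in MUT they overlapped through MUT ICM embryo 10. The log2 fold changes were -1.32 (SE 0.40), -1.22 (SE 0.35), -0.99 (SE 0.25) and -1.11 (SE 0.23) in MUT EPI, MUT PrE, WT EPI and WT PrE, with adjusted p = 0.22, 0.17, 0.11 and 0.077 (edgeR). The 2 lineages share their ICM samples. Without MUT ICM embryo 10, Rps4x passed in MUT PrE over MUT ICM, with a log2 fold change of -1.45. Of the members' summed CPM, Rps4x made up 1.39 ± 0.17% in MUT EPI, 1.51 ± 0.20% in MUT PrE and 3.61 ± 1.05% in MUT ICM, and 1.90 ± 0.60% in WT EPI, 1.65 ± 0.44% in WT PrE and 3.54 ± 0.47% in WT ICM. Rps4x is X-linked, and in MUT sex and stage are largely confounded. The MUT ICM embryos were 4 female and 1 male, the MUT E3.75 embryos all male. Among male embryos alone Rps4x was at 663 to 1168 CPM in MUT EPI, 755 to 1015 in MUT PrE and 1838 in the 1 MUT ICM embryo, and at 737 in the WT EPI, 748 in the WT PrE and 1639 to 2484 CPM in the 3 WT ICM embryos. Over all X-linked genes the median log2 fold changes were -0.37 in MUT EPI, -0.33 in MUT PrE, -0.29 in WT EPI and -0.21 in WT PrE. Over autosomal genes they were -0.05, -0.05, -0.13 and -0.17, and over the 4 X-linked members -0.70, -0.60, 0.03 and 0.18.

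Rpl4 and Rpl7, a pair of large subunit proteins, had lower values at E3.75 in WT. Rpl4 was at 1843, 1701 and 1879.9 CPM in WT EPI, 1978, 2072 and 2109 in WT PrE and 2672, 3423, 3410.1, 3460.3 and 3529.6 in WT ICM, with log2 fold changes of -0.86 (SE 0.17) and -0.66 (SE 0.18) and adjusted p = 0.067 and 0.15 (edgeR). It passed in EPI over ICM when WT ICM embryo 13 was left out (-0.91). In MUT it was at 2040.3, 2224, 2545 and 2013 CPM in EPI, 2233, 2522, 2259 and 2461 in PrE and 1328, 2357, 1626, 2683 and 3579.9 in ICM, where the ICM embryos spanned the E3.75 values on both sides. Rpl7 was at 1352, 1018 and 978 CPM in WT EPI, 1259, 1322 and 1244 in WT PrE and 1498, 2591, 2226, 1942 and 2549 in WT ICM, with log2 fold changes of -0.94 (SE 0.23) and -0.74 (SE 0.22). All WT E3.75 values of Rpl4 and Rpl7 were below all WT ICM values. In MUT, Rpl7 was at 1043, 1259.6, 1114 and 879 CPM in PrE and 713, 1573, 2229.8, 2037 and 2524 in ICM (log2 fold change -0.75, SE 0.36; adjusted p = 0.56), with overlap through embryo 10. Rpl10 was at 939.6, 682, 820.2 and 535 CPM in MUT EPI and 452, 1038, 2016, 1313 and 2042 in MUT ICM (log2 fold change -0.90, SE 0.44, adjusted p = 0.65, edgeR), again with embryo 10 alone below the highest E3.75 value. Rpl10 is X-linked too, with the same confounding of sex and stage in MUT.

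Rpl37a, a small zinc-binding protein of the large subunit, lay the other way. It was at 819, 711 and 791 CPM in WT EPI, 717, 757 and 781 in WT PrE and 237, 385, 470.4, 405 and 679 in WT ICM, with all E3.75 above all ICM values, log2 fold changes of 0.85 (SE 0.29) and 0.82 (SE 0.31), and adjusted p = 0.23 and 0.25 (edgeR). Limma-trend called it in both, with log2 fold changes of 1.38 and 1.27 (medians over all genes 0.68 and 0.56) and adjusted p = 0.0077 and 0.023. As a share of the members' CPM it was 1.22 ± 0.12% in MUT EPI, 1.16 ± 0.03% in MUT PrE and 0.66 ± 0.14% in MUT ICM, and 1.31 ± 0.07% in WT EPI, 1.2 ± 0.05% in WT PrE and 0.67 ± 0.13% in WT ICM. Members with all E3.75 above all ICM values were Rpl37a in WT EPI (1.27% against 8.27% of genes), Rplp1 and Rpl37a in WT PrE (2.53% against 6.2%), Rps23 in MUT EPI (1.25% against 2.1%) and Rps23 and Rpl3 in MUT PrE (2.5% against 3.67%). Those with all below were Rpl6, Rps4x, Rpl4 and Rpl7 in WT EPI (5.06% against 7.01%), the same 4 with Rps20 in WT PrE (6.33% against 8.35%), and 0 in MUT EPI (against 2.8%) and in MUT PrE (against 3.14%). Each share is under that of all genes.

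**Figure D5:**
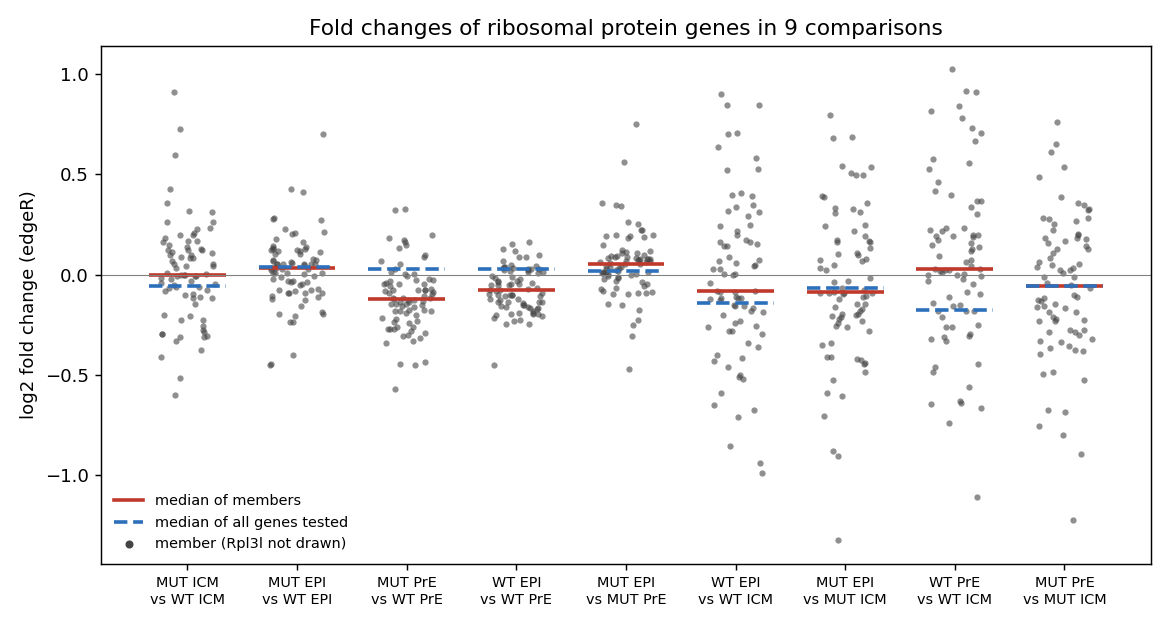
Log2 fold changes (edgeR, first group over second) of the members in the 9 comparisons, 1 point per member with Rpl3l left out, with the median of members as a solid red line and of all genes tested as a dashed blue line. Members lie between -0.57 and 0.75 in the 4 comparisons within E3.75 and spread from -1.32 to 1.02 in the 4 comparisons of E3.75 with the ICM.

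The 3 stalk proteins, Rplp0, Rplp1 and Rplp2, recruit translation factors to the large subunit. Rplp0 was at 1086 ± 476 CPM per kb in MUT ICM and 1097 ± 426 in WT ICM, 936 ± 229 in MUT EPI and 769 ± 117 in WT EPI, and 1124 ± 119.6 in MUT PrE and 882 ± 217 in WT PrE. The group means of Rplp1 were highest in WT PrE, at 2041 CPM per kb, and lowest in WT ICM, at 1406. Those of Rplp2 were highest in WT PrE, at 421, and lowest in WT ICM, at 241. None differed past the threshold in any comparison with edgeR (adjusted p of 0.24 or more). Limma-trend called Rplp1 and Rplp2 higher in WT EPI than in WT ICM (adjusted p = 0.015 and 0.0087) and in WT PrE than in WT ICM (0.016 and 0.0097).

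Rps6, whose protein is phosphorylated downstream of mTOR, averaged 290.3 CPM per kb over the groups. It was at 447 ± 224 CPM in MUT ICM and 554 ± 129 CPM in WT ICM, at 375 to 518 CPM in MUT EPI and 394 to 487 CPM in WT EPI. Rpl5 and Rpl11, which with the 5S ribosomal RNA can bind MDM2 and so stabilise p53, averaged 161 and 252 CPM per kb. Rpsa, the small subunit protein also known as the laminin receptor, averaged 366 CPM per kb, and Rps27a, made as a fusion with ubiquitin, 620.2 CPM per kb. For Rpl5 the group means stayed between 154 in MUT EPI and 166 CPM per kb in WT ICM.

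Of the 4 members whose symbol ends in l, Rps27l and Rpl39l were level per kb of exon with the gene they resemble. The match depends on the length used. The coding transcript of Rpl39 has 612 bases against 805 for Rpl39l, and Rpl39 averaged 529 CPM in MUT EPI and 417 CPM in MUT PrE. Per kb of coding transcript Rpl39 was thus the higher in those groups. Rps27 shares 98.6% of its 50-base stretches with other genes and Rps27l 13.7%, so the levels of that pair are not safely compared. Rps27l, known as a p53 target, was at 852 CPM per kb averaged over the 6 groups, beside 826 for Rps27. Rpl39l, known in mouse for its part in spermatogenesis, was at 393 CPM per kb beside 394 for the X-linked Rpl39, and its coding transcript shares 0% of 50-base stretches with other genes. In each group the mean ± SD ranges of both pairs overlapped, with Rpl39l at 521 ± 145 and Rpl39 at 369 ± 139 CPM per kb in MUT EPI. Rpl39l was at 457, 589, 308 and 377 CPM in MUT EPI and 305, 299, 224 and 355 CPM in MUT PrE, a log2 fold change of 0.56 (SE 0.24) with adjusted p = 0.46 (edgeR), and the lineages overlapped as groups, while EPI was above PrE in 4 of 4 embryos. The value was 0.38 without embryo 2, whose EPI sum is 1 cell. In WT it was at 299, 289 and 387 CPM in EPI and 279, 203 and 434 CPM in PrE.

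Rpl10l, an autosomal copy of Rpl10 that is needed in mouse male germ cells, was lower than its partner, at 104 CPM per kb beside 551 for Rpl10, and had counts in 97.7% of cells. Rpl3l, a heart and skeletal muscle form of Rpl3, was at 0.896 CPM per kb beside 185 for Rpl3. It had a count in 20 of the 171 cells, 5 in MUT ICM and 6 in WT ICM, 4 in MUT EPI and 2 in WT EPI, and 2 in MUT PrE and 1 in WT PrE. The other 78 members had counts in 100% of cells. Genes most like Rps27l over the 24 sums, of the 3467, were Gm10076 (rank correlation 0.91), Snrpe (0.90) and Ndufb6 (0.86), and those most like Rpl39l were the member Rpl26 (0.75), Gm12191 (0.74) and Fbp1 (0.72).

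Genes around the ribosome gave no calls either. Of 23 other genes with TOP mRNAs or translation roles (Eef1a1, Eef2, Npm1, Tpt1 and others) 0 passed in any of the 9 comparisons with edgeR, with medians from -0.35 in WT EPI over WT ICM to 0.03 in MUT EPI over WT EPI. Of 6 ribosomal protein paralogs outside the rule (Rpl22l1, Rpl7l1, Rpl36al and others) 0 passed among the 4 tested. Of 22 genes that control ribosomal protein mRNAs (Mtor, Rptor, Larp1, Myc, Gabpa, Yy1 and others) 0 passed among the 21 or 22 tested, with medians from -0.52 in WT PrE over WT ICM to 0.20 in WT EPI over WT PrE. Of these, Myc was at 0.572 to 118 CPM in MUT EPI and 157 to 401 CPM in WT EPI, without overlap, and was singled out after its values were seen. In the EPI 5.37% of all genes had all MUT below all WT values. Of the 78 mitochondrial ribosomal protein genes 0 passed, and their medians were lower at E3.75 than in the ICM, at -0.23 in MUT EPI, -0.28 in MUT PrE, -0.35 in WT EPI and -0.44 in WT PrE. Over the same 4 comparisons the medians of the cytoplasmic members were -0.09, -0.06, -0.08 and 0.03, and those of all genes tested -0.06, -0.06, -0.14 and -0.18. Leaving out 1 embryo moved the medians of the members from -0.34 to 0.13, -0.35 to 0.15, -0.15 to 0.13 and -0.05 to 0.22, so the sign of each rests on single embryos. The lowest and highest were without MUT ICM embryos 10 and 2 in both MUT comparisons, without WT EPI embryo 1 and WT ICM embryo 22 in WT EPI, and without WT ICM embryos 13 and 22 in WT PrE.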

How the data were processed

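The authors deposited whole-number counts per gene for 171 cells, not normalized. STAR, HTSeq and build mm10 are named in the submitters' processing notes, without versions, strand or multi-mapping settings. Symbols, types and exons came from GENCODE vM21 (49326 of 49671 rows matched; the 345 others held 0.0101% of counts). Embryo, stage and letter were read from titles and lineage from the sample type; the source label of the E3.75 cells was not used for stage. The first number of a title was taken as the embryo, and nothing says whether embryos shared a litter, so p-values measure the spread between these embryos.

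Counts were summed per embryo and lineage (8117787 to 122331780 counts per sum) and the quasi-likelihood test of edgeR 4.0.16 in R 4.3.3 was run (TMM, filterByExpr with a minimum count of 10, robust) on the 2 groups compared, with Benjamini-Hochberg adjustment over all genes tested and a threshold of 0.05; interactions were fitted on all 6 groups. The SE of a log2 fold change is its size over the square root of F. CPM values use TMM factors over all 24 sums, and counts of embryos above or below others use them too. PCR copies are not independent molecules. Alternatives were DESeq2 1.42.0, limma-trend 3.58.1 on embryo means of log2(CPM + 1) over cells, RLE scaling, scaling without members, no low-count filter, members with named pseudogenes, without shallow cells (3 median absolute deviations), without sums of 1 cell, embryo sex or title letter as a covariate, a replicate block and each embryo left out. The edgeR test was also run on simulated counts with the same dispersion for every gene, which does not show how it performs on the spread of these embryos. Clustering and doublet calling were not run.

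Besides Stat3, the members named are, in each comparison up to 4 per direction that passed, and where none passed the 2 of smallest unadjusted p (1 per interaction), the 5 highest and 5 lowest per kb, the X-linked ones, symbols ending in l with their partners, the stalk proteins and Rps6, Rpl5, Rpl11, Rpsa and Rps27a; some genes that this rule names are not reported here. Rpl13, Rpl37a and the members listed as not overlapping were named after their values were seen. Members and lists were chosen with earlier results of these data known. EPI and PrE sums of 1 number come from the same embryo, so the number pairs them; their deviations correlated at 0.04 to 0.08 in MUT and 0.09 to 0.14 in WT.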

Additional observations from a re-analysis of the deposited data

Results flagged for a closer look

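A value far from the others of its group was found in 7 of 120 groups of 4 or 5 embryos, where chance flags about 1 in 20. WT ICM embryo 22 stood high in Rpl36a (847 CPM, against 276 to 419 in the other 4 embryos) and in Rpl39 (1071 CPM, against 255 to 417). WT ICM embryo 13 stood low in Rpl4, at 2672 CPM against 3410.1 to 3529.6 in the others. In MUT EPI, embryo 1 stood high in Rps6, at 518 CPM against 375 to 395 in the others. Rpl3l stood high in 3 embryos, with 3.44 CPM in MUT ICM embryo 18 (0 to 0.896 in the others), 11.6 CPM in WT ICM embryo 13 (0.0164 to 0.121) and 1.11 CPM in MUT PrE embryo 5 (0 in the others).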

How the results depend on the processing

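The count of members called stayed at 0 in 196 of 204 alternative fits. The exceptions were DESeq2, with 1 in MUT PrE over WT PrE, 3 in WT EPI over WT ICM, 1 in WT PrE over WT ICM and 1 in MUT PrE over MUT ICM; limma-trend on embryo means, with 13 and 10 in WT EPI and WT PrE over WT ICM; and leaving out an embryo, which gave 0 to 1 in WT EPI over WT ICM and 0 to 1 in MUT PrE over MUT ICM. The cause was not tested. The same DESeq2 and limma-trend fits called other genes too, in the numbers given with each comparison above. The counts of members alone thus do not show that members were called more often than other genes. In the limma-trend fits of WT EPI and WT PrE over WT ICM the median member lay below the median of all genes. With embryo sex in the model, the log2 fold changes of Rps4x (0.20), Rpl10 (0.052) and Rpl39 (0.067) in EPI and of Rps4x (0.21) in PrE changed sign; with the title letter Rps4x in PrE was at 0.024. Leaving out 1 embryo moved the Rpl3l interaction between -3.61 and 12.35. With the embryo number as a replicate block 0 members passed in the 4 fits that allowed it, and the medians were 0.17, -0.05, -0.08 and 0.04 for MUT EPI over WT EPI, MUT PrE over WT PrE, WT EPI over WT PrE and MUT EPI over MUT PrE. Under the block Rpl39 in EPI was at 0.029; MUT and WT embryos share only a number, with same-number deviations correlated at -0.04 to 0.13. The median cell of each embryo gave mean shares of 6.28 ± 3.25% in MUT ICM and 4.19 ± 0.811% in WT ICM (SD), further apart than the sums, with overlap between embryos. Leaving out mitochondrial counts gave shares of 7.05% in MUT EPI and 7.07% in WT EPI, and 6.77% in MUT PrE and 7.21% in WT PrE. Leaving out 1 embryo gave shares of 5.15 to 6.62% for MUT ICM and 5.18 to 6.04% for WT ICM, 6.22 to 6.61% in MUT EPI and 6.43 to 6.71% in WT EPI, and 6.10 to 6.43% in MUT PrE and 6.45 to 6.84% in WT PrE. Over coding transcripts the median member was at 809 CPM per kb, and with 100-base stretches the shared part was 31.5%. Of the log2 fold changes of named members 427 of 441 kept sign and side of the threshold. The median standard error of a member ran from 0.15 in MUT PrE over WT PrE to 0.56 in the interaction of EPI and PrE.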
